A study of Mus musculus with 12 samples.

Results

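The receptors of the activin, BMP and TGF-beta family were read in bulk RNA sequencing of mouse dentate gyrus. The members were 10 genes picked by name: the type I receptors Acvr1b, Acvr1c, Tgfbr1, Acvr1, Bmpr1a and Bmpr1b and the type II receptors Acvr2a, Acvr2b, Tgfbr2 and Bmpr2. All 10 were found by symbol among the 52636 genes of both count tables. The rule uses no measured value, but the receptors were chosen with earlier results of these data known. There were 12 libraries in 4 groups of 3, all from C57BL/6 mice. The Fst vector group received an AAV9 vector for the follistatin gene Fst and is marked OE in its labels, with no genotype stated (the series title speaks of overexpressing mice). The GFP vector group were Fst knockout mice with an AAV9 vector for GFP. The KO group were Fst knockout mice and the WT group wild type, both without a vector in their labels. The vector names carry the letters CB, whose meaning is not given, and the labels give no age, no kind of knockout allele and no dose, site or time of injection. Libraries carry the names of their titles: M1, M2 and F in the vector groups, and M1, F1 and M2 in KO and WT.

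These receptors work in pairs. A dimeric ligand brings type II receptors, which are constantly active serine/threonine kinases, together with type I receptors, and the type II kinase switches on the type I kinase. The type I receptor then sets the branch: Acvr1b (ALK4), Acvr1c (ALK7) and Tgfbr1 (ALK5) phosphorylate SMAD2 and SMAD3, whereas Acvr1 (ALK2), Bmpr1a (ALK3) and Bmpr1b (ALK6) phosphorylate SMAD1, SMAD5 and SMAD9. Follistatin is secreted and traps activins, and some BMPs, before they reach a receptor. In the hippocampus activin is known as a product of active neurons that acts on synapses, and BMP signalling is known to hold adult neural stem cells of the dentate gyrus in quiescence.

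The libraries held 8081824 to 11331337 counts and 20915 to 22235 detected genes. Fst, the targeted gene, had 2078, 1870 and 1497 counts in the Fst vector libraries and 0, 1 and 0 in the GFP vector libraries. It had 2, 4 and 2 counts in KO and 34, 33 and 51 in WT. Summed over 7 markers, dentate granule cells stood at 1416 to 2094 CPM (a gene's counts over the library's total, on the same scale in all libraries) in the 12 libraries, and each of the 7 was detected. The share of mitochondrial ribosomal RNA was 0.563 to 0.658% in KO M2, WT F1, GFP vector M2, Fst vector M2 and Fst vector F, and 0.00862 to 0.0202% in the 7 other libraries. Astrocyte markers, summed over 5 of 5 genes, stood at 1483, 1610 and 1979 CPM in the Fst vector libraries and at 1343, 2513 and 5890 CPM in the GFP vector libraries, with GFP vector F the highest of the 12. They stood at 1260 to 1346 CPM in KO and 1325 to 1380 CPM in WT. For F1 and M2 of both KO and WT, the sex in the title is not the sex in the description. The design text does not make clear whether a library pools several mice. The p-values therefore speak only of how these libraries vary.

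All 10 receptors were detected in every library. Set per length, as CPM per kb of annotated exon, the type I activin receptor Acvr1b led in each group, at 29.9 ± 1.03 in the Fst vector group, 37.8 ± 3.16 in the GFP vector group, 38.7 ± 1.003 in KO and 40.5 ± 2.37 in WT (SD, n = 3 each). The type II activin receptor Acvr2a came next in KO, at 16.7 ± 0.293 CPM per kb, and in WT, at 17.3 ± 0.825 CPM per kb. In both of these groups the libraries of Acvr1b did not overlap with those of Acvr2a, nor those of Acvr2a with those of the next gene. After them in WT came Bmpr2 at 10.8, Acvr1 at 9.81, Bmpr1a at 8.25, Tgfbr1 at 7.75, Acvr1c at 4.63, Bmpr1b at 3.46, Acvr2b at 1.63 and Tgfbr2 at 1.63 CPM per kb. Among these neighbours the libraries of Bmpr2 and Acvr1, of Bmpr1a and Tgfbr1, and of Acvr2b and Tgfbr2 overlapped, and the other neighbours did not. KO had the same order except at the low end, with Tgfbr2 at 1.55 and Acvr2b at 1.48 CPM per kb and their libraries overlapping.

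The order was looser in the vector groups. In the GFP vector group the BMP type I receptor Acvr1 stood second, at 16.7 ± 8.43 CPM per kb, and Acvr1c came after Acvr2a, at 10.6 ± 7.27 CPM per kb (SD, n = 3). The libraries of Acvr1, Acvr2a, Acvr1c, Bmpr2 and Bmpr1a each overlapped with those of their neighbour there. In the Fst vector group Acvr1c came after Bmpr1b, at 2.87 ± 1.72 CPM per kb, and the libraries of Acvr2a, Acvr1, Bmpr2 and Bmpr1a overlapped likewise.

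**Figure D1:**
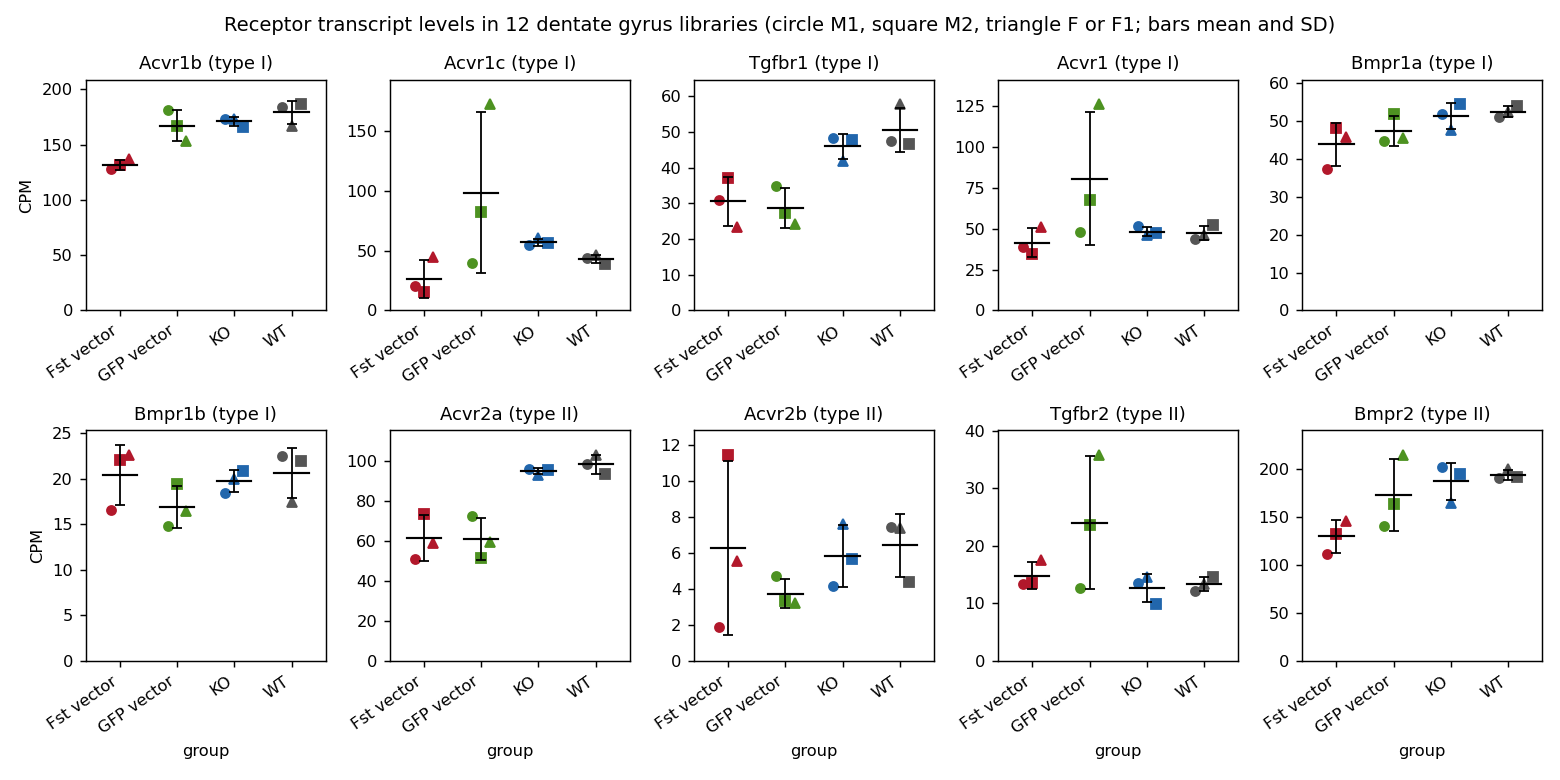
CPM of the 10 receptors (vertical axes, each from 0 with its own scale) in the 4 groups, with 1 point per library, horizontal lines for group means and bars for the SD of 3 libraries. The Fst vector libraries of Acvr1b, at 128 to 137 CPM, lie below the GFP vector libraries, at 153 to 181 CPM, while Acvr1c spreads from 40.1 to 172 CPM within the GFP vector group.

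Summed over the 10 genes, receptor transcripts were lowest in the Fst vector group. The sums were 69.8, 80.5 and 83.1 CPM per kb in its M1, M2 and F, against 93.5, 98.1 and 121 CPM per kb in the GFP vector libraries of the same names. KO had 101.9 to 105.4 and WT 105.2 to 106.6 CPM per kb. No Fst vector library reached the lowest library of any other group, although KO and WT come from a table deposited separately. The type I receptors of the SMAD2 and SMAD3 branch had sums that were apart, with 35.8, 37.1 and 39.3 CPM per kb in the Fst vector libraries against 50.7, 50.8 and 56.9 CPM per kb in the GFP vector libraries. Most of this sum was Acvr1b, on average 29.9 of 37.4 CPM per kb in the Fst vector group and 37.8 of 52.8 in the GFP vector group. Acvr1c averaged 2.87 CPM per kb in the Fst vector group and 10.6 in the GFP vector group, and Tgfbr1 4.67 and 4.40. Of these genes only Acvr1b had groups that did not overlap. For the type I receptors of the BMP branch the sums were 16.7, 18.5 and 21.6 CPM per kb in the Fst vector libraries and 19.5, 25.4 and 36.0 CPM per kb in the GFP vector libraries, which overlap. For the type II receptors they were 17.3, 24.9 and 22.1 CPM per kb in the Fst vector libraries and 23.3, 21.9 and 27.6 CPM per kb in the GFP vector libraries, which overlap too. Acvr1b made up 37.0 to 41.4% of the summed level in the Fst vector group, 28.8 to 43.9% in the GFP vector group, 36.4 to 38.5% in KO and 36.0 to 39.6% in WT. In bulk tissue, fewer cells of a type and less RNA per cell cannot be told apart.

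**Figure D2:**
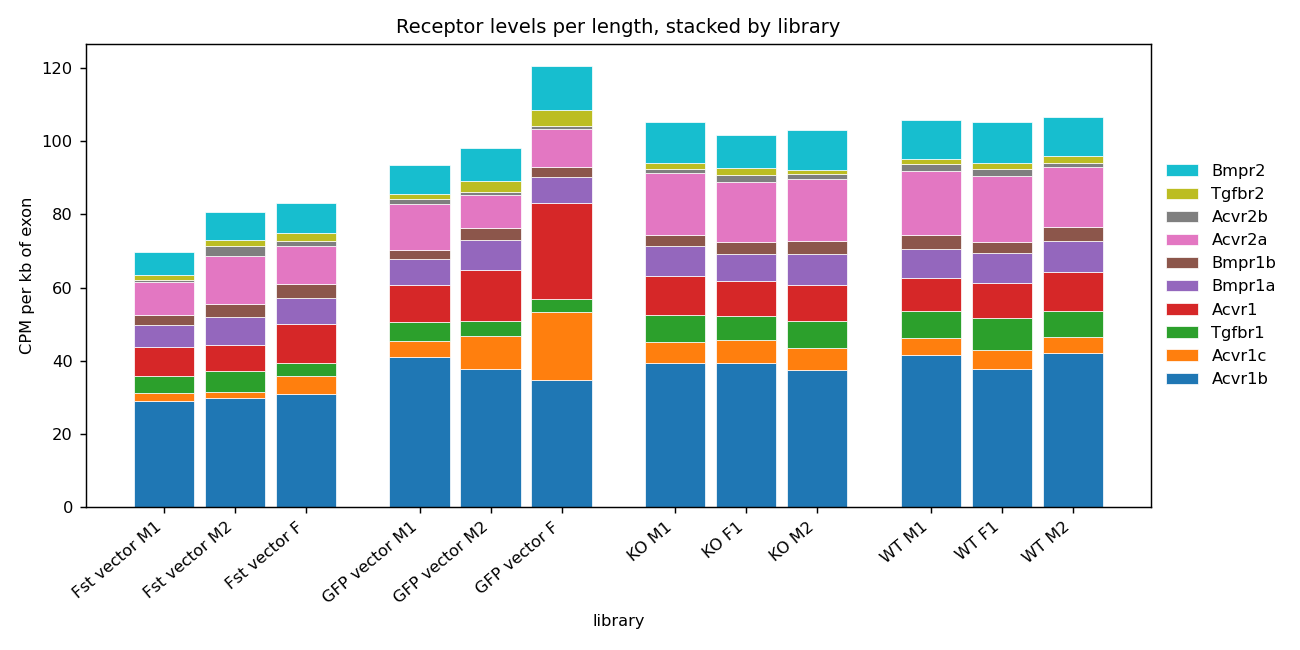
Stacked bars of the receptor levels, in CPM per kb of exon (vertical axis, from 0), for each of the 12 libraries. The bars of the Fst vector libraries end at 69.8 to 83.1 CPM per kb, and that of GFP vector F, at 121, holds the largest segments of Acvr1c and Acvr1.

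Of the 10 genes, 3 lie on chromosome 2. In GRCm38, Acvr1c (ENSMUSG00000026834) spans 58267453 to 58357895 and Acvr1 (ENSMUSG00000026836) spans 58388644 to 58567157, both on the minus strand with 30748 bases between them. Acvr2a (ENSMUSG00000052155) lies on the plus strand of chromosome 2 at 48814109 to 48903269, and 446 bases of its exons, 7.84%, are shared with exons of Orc4 on the other strand. Tgfbr1 (ENSMUSG00000007613) lies on the plus strand of chromosome 4 at 47353222 to 47414931. Acvr1b is on chromosome 15, Bmpr1a on 14, Bmpr1b on 3, Acvr2b and Tgfbr2 on 9, and Bmpr2 on 1. No source used here says how strand was handled in counting, so reads in the stretch shared by Acvr2a and Orc4 cannot be told apart. Acvr1c and Bmpr1a also share 168 and 290 exon bases with the predicted antisense genes Gm13544 and Gm17110, which had 2 and 14 counts over the 12 libraries.

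The levels of Acvr1c and Acvr1, and those of Tgfbr1 and Acvr2a, moved together over the libraries, as described further on, and the promoters of these pairs are shown for that reason. They are RefSeq windows on GRCm38.p6, from 250 bases before to 50 bases after a transcript start, read 5′ to 3′ along the gene. RefSeq gives Acvr1c and Tgfbr1 a second window each, and the one nearest the start of the annotated gene is shown. The window shown for Acvr1c is chr2:58357709-58358008 and that of Acvr1 is chr2:58566779-58567078, both on the minus strand. That of Tgfbr1 is chr4:47352972-47353271 and that of Acvr2a is chr2:48813859-48814158, both on the plus strand. Capitals mark a SMAD box, CAGAC or its reverse complement GTCTG.
Acvr1c: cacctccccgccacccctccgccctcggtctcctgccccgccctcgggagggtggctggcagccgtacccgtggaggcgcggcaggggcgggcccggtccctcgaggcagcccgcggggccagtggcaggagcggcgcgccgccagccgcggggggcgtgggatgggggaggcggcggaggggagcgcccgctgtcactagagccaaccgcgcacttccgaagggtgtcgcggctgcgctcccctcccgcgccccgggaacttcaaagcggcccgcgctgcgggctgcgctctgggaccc
Acvr1: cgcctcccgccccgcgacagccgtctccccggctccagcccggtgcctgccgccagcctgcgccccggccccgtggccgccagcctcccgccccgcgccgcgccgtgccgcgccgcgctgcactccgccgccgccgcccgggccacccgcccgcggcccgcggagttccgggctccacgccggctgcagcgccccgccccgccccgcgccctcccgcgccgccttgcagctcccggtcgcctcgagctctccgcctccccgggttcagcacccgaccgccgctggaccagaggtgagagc
Tgfbr1: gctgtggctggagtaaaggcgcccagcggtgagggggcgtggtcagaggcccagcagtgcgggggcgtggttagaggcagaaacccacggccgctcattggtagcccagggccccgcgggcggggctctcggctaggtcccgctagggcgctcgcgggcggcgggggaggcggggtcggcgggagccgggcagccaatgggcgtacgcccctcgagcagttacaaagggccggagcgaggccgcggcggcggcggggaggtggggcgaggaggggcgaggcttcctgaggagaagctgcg
Acvr2a: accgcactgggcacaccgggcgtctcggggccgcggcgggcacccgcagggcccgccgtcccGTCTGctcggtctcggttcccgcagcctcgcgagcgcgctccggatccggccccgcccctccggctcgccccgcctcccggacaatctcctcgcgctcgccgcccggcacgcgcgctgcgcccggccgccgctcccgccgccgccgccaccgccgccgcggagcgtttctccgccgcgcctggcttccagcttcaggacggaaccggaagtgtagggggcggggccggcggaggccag

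The windows shown hold G and C at 79.0% for Acvr1c, 83.7% for Acvr1, 74.7% for Tgfbr1 and 80.3% for Acvr2a, against a median of 52.7% over 32851 promoters. The second windows of Acvr1c and Tgfbr1, not shown, were at 50.3% and 52.0%, and that of Tgfbr1 held a SMAD box. The 1 SMAD box shown, in Acvr2a, starts 188 bases before the transcript start. RefSeq gave 14 promoters for the 10 receptors. Searched on both strands, the SMAD box was in 6 of the 14 (42.9%), against 49.6% of all promoters. The letters TGACG, the core of the cyclic AMP response element, were in 0 of the 14 against 20.8% of all promoters. The full element TGACGTCA, which contains that core, was in 0 of the 14 against 1.79%. The AP-1 site TGANTCA was in 0 of the 14 against 7.81%. A match is a match of letters, and its absence concerns these windows alone.

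The comparison of the Fst vector with the GFP vector asks what differs between mice given Fst and mice given GFP. The GFP vector mice were knockouts and no genotype is stated for the Fst vector mice, so genotype may differ too. Acvr1b, the most abundant type I receptor, was lower in every Fst vector library than in every GFP vector library, and Acvr1c, Acvr1 and Bmpr2 were lower on average, but no receptor passed the adjustment over all genes. By edgeR's quasi-likelihood test 0 of 10 receptors had an adjusted p under 0.05, where 0.0798% of the 15034 genes tested did. DESeq2 also called 0 of 10. At unadjusted p under 0.05 there were 4 of 10 by edgeR, where 9.51% of genes passed, and all 4 were lower, where 5.16% of genes were lower. At adjusted p under 0.05, 0 receptors were lower, where 0.0532% of genes were. At unadjusted p under 0.05 DESeq2 gave 5 of 10 receptors, where 1419 genes passed. That count is over all genes with a p-value, which are more than the 15214 genes it adjusted. The groups did not overlap for 1 of 10, Acvr1b, against 16.5% of genes. Log2 changes were negative for 7 and positive for 3 receptors, with a median of -0.26, against 0.01 over all genes tested.

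Among the type I receptors of the SMAD2 and SMAD3 branch, Acvr1b, the main type I receptor of activin, had 128, 132 and 137 CPM in Fst vector M1, M2 and F. In GFP vector M1, M2 and F it had 181, 167 and 153 CPM. The groups were apart and each was tight, and the log2 change was -0.38 ± 0.12 (SE, by edgeR, adjusted p = 0.359). With a spread shared over all 12 libraries the adjusted p was 0.0278, and over the alternatives it lay between 0.0278 and 0.781. Acvr1c, a type I receptor of activin B and of some other ligands of the family, had 20.0, 15.1 and 44.8 CPM in Fst vector M1, M2 and F. In GFP vector M1, M2 and F it had 40.1, 82.8 and 172 CPM. GFP vector F was far above the rest, and Fst vector F, at 44.8 CPM, stood above GFP vector M1, so the groups overlapped. Its log2 change was the largest of the 10 in size, at -1.93 ± 0.68 (SE, by edgeR, adjusted p = 0.475).

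In each same-named pair of libraries Acvr1c was lower in the Fst vector library. With the replicate name as a block its log2 change was -1.85 ± 0.27 and its adjusted p 0.0475 (edgeR quasi-likelihood), a pairing drawn from these data and stated by no label. That fit called 141 genes, against 12 without the block, and Acvr1c was the only receptor among them. With sex by title as a term Acvr1c had an adjusted p of 0.0249, and over all alternatives it ran from 0.0249 to 0.809. Leaving out GFP vector F gave a log2 change of -1.25. The third receptor of this branch, Tgfbr1, the type I receptor of TGF-beta, had 31.0, 37.1 and 23.5 CPM in Fst vector M1, M2 and F. It had 34.9, 27.2 and 24.1 CPM in GFP vector M1, M2 and F. The groups overlapped, at a log2 change of 0.05 with a 95% interval of -0.41 to 0.52.

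Among the type I receptors of the BMP branch, Acvr1 had 38.7, 34.6 and 51.4 CPM in Fst vector M1, M2 and F. In GFP vector M1, M2 and F it had 48.0, 67.6 and 126 CPM. As for Acvr1c, F was the highest library in either group and GFP vector F stood far above the others. The log2 change was -0.99 ± 0.36 (SE, by edgeR, adjusted p = 0.450), and -0.51 without GFP vector F. Bmpr1a, a BMP receptor of neural stem cells among other cells, had 37.4 to 48.2 CPM in the Fst vector group and 44.8 to 51.8 CPM in the GFP vector group, with a log2 change of -0.15 (95% interval -0.46 to 0.15). Bmpr1b, the third of the branch, had 16.6 to 22.6 CPM in the Fst vector group and 14.8 to 19.4 CPM in the GFP vector group, with a log2 change of 0.24 (95% interval -0.16 to 0.63). Both overlapped between the groups.

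Among the type II receptors, Bmpr2, which serves BMP ligands, had 112, 133 and 146 CPM in Fst vector M1, M2 and F. It had 141, 164 and 215 CPM in GFP vector M1, M2 and F. Only Fst vector F and GFP vector M1 overlapped, and the log2 change was -0.45 ± 0.17 (SE, by edgeR, adjusted p = 0.455), or -0.27 without GFP vector F. Tgfbr2, the type II receptor of TGF-beta, had 13.4, 13.6 and 17.5 CPM in Fst vector M1, M2 and F and 12.6, 23.7 and 35.8 CPM in GFP vector M1, M2 and F. GFP vector M1 was the lowest and GFP vector F the highest of these 6, and the log2 change was -0.74 ± 0.34 (SE, by edgeR, adjusted p = 0.560), or -0.34 without GFP vector F. Acvr2a, a type II receptor shared by activins and some BMPs, had 51.1, 73.8 and 59.3 CPM in Fst vector M1, M2 and F and 72.5, 51.4 and 59.4 CPM in GFP vector M1, M2 and F. The groups covered the same range, with a log2 change of -0.03 (95% interval -0.43 to 0.36). Its relative Acvr2b had 19, 113 and 50 counts in the Fst vector libraries, with exact Poisson 95% intervals of 11.4 to 29.7, 93.1 to 136 and 37.1 to 65.9 that cover counting error only. It had 38, 34 and 34 counts in the GFP vector libraries. Fst vector M1 and M2 were the lowest and the highest of the 12 libraries for this gene in CPM, with counting intervals far apart, and the log2 change was 0.70 with a 95% interval of -0.59 to 2.004. The direction rests on Fst vector M2: without it the log2 change was -0.05, and without Fst vector M1 it was 1.14.

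Several measures moved with these values. GFP vector F, the highest of the 12 libraries for Acvr1c, Acvr1, Tgfbr2 and Bmpr2, also had the highest sum of astrocyte markers. Of the astrocyte markers, Gfap stood at 613, 620 and 1033 CPM in Fst vector M1, M2 and F and at 566, 1555 and 4864 CPM in GFP vector M1, M2 and F, whereas Slc1a3 stood at 551, 610 and 569 CPM in the Fst vector libraries and at 493, 579 and 462 CPM in the GFP vector libraries. Of the 5 astrocyte markers only Gja1 had groups apart. It stood at 186, 208 and 177 CPM in Fst vector M1, M2 and F. In GFP vector M1, M2 and F it stood at 149, 162 and 142 CPM. Of the 15 marker lists, 3 did not overlap between the groups, where 16.5% of single genes did not. Oligodendrocyte markers summed to 1363 to 1615 CPM in the Fst vector group and 1012 to 1180 CPM in the GFP vector group, and interneuron markers to 454 to 508 CPM in the Fst vector group and 343 to 443 CPM in the GFP vector group. CA1 pyramidal markers summed to 51.6 to 59.3 CPM in the Fst vector group and 65.8 to 72.0 CPM in the GFP vector group. Each marker on these lists was detected in at least 1 library, and their part in the receptor values was not tested. Fst vector M2 and F and GFP vector M2 had the higher share of mitochondrial ribosomal RNA. With the ribosomal RNA share as a term the log2 change of Acvr2b was 0.20, that of Acvr1c -1.94 and that of Acvr1b -0.38. Within the libraries of higher share, Acvr1c had 15.1 and 44.8 CPM in Fst vector M2 and F and 82.8 CPM in GFP vector M2. Within those of lower share it had 20.0 CPM in Fst vector M1 and 40.1 and 172 CPM in GFP vector M1 and F. Acvr1b was also lower in the Fst vector within both sets, which hold too few libraries for a test.

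The comparison of KO with WT asks what differs without follistatin. Receptor levels were close between these groups, and Acvr1c alone had KO libraries all above the WT libraries. Acvr1c had 54.6, 60.5 and 56.1 CPM in KO M1, F1 and M2 and 43.6, 46.2 and 39.2 CPM in WT M1, F1 and M2. The groups were apart by more than the spread within either, with a log2 change of 0.43 ± 0.09 and an adjusted p of 0.0584 (SE, edgeR quasi-likelihood), just above the threshold. DESeq2 gave 0.154. The title and the description give different sexes for F1 and M2 of KO and WT, so a sex term may be wrong. With sex by title as a term the adjusted p was 0.0096, with no filter on low counts 0.0013, and with a spread shared over 12 libraries 1. Leaving out 1 library gave 0.0234 without WT F1 to 0.692 without WT M2, and over all alternatives the adjusted p lay between 0.0013 and 1, with log2 changes of 0.36 to 0.49.

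By edgeR 0 of 10 receptors passed in KO against WT, where 0.0268% of the 14919 genes tested passed, and DESeq2 called 0 as well. At unadjusted p under 0.05 there was 1 of 10 by edgeR, Acvr1c, where 5.96% of genes passed, and 1 by DESeq2, where 462 genes passed. No receptor was lower at either threshold, where 0.0201% of genes were lower at adjusted and 3.01% at unadjusted p under 0.05. The groups did not overlap for 1 of 10, against 11.0% of genes. The other 9 receptors overlapped between KO and WT. The log2 change was negative for 8 receptors and positive for 2, with a median of -0.04 against a median of -8.49e-04 over all genes. The abundant members set narrow limits. For Acvr1b, with 166 to 173 CPM in KO and 167 to 186 CPM in WT, the 95% interval of the log2 change was -0.16 to 0.06. For Bmpr2, with 165 to 202 CPM in KO and 191 to 201 CPM in WT, it was -0.16 to 0.09, and for Acvr2a, with 93.3 to 96.5 CPM in KO and 93.8 to 103 CPM in WT, it was -0.16 to 0.09.

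The receptors of middle level were as close. Acvr1 had 45.9 to 51.7 CPM in KO and 43.6 to 52.3 CPM in WT (95% interval of the log2 change -0.13 to 0.22). Bmpr1a had 47.6 to 54.3 CPM in KO and 51.1 to 53.9 CPM in WT (-0.18 to 0.15). Tgfbr1 had 42.0 to 48.2 CPM in KO and 46.6 to 57.7 CPM in WT (-0.31 to 0.07). The intervals widened at low levels. Bmpr1b had 18.5 to 20.8 CPM in KO and 17.5 to 22.5 CPM in WT (-0.28 to 0.19), and Tgfbr2 had 9.85 to 14.6 CPM in KO and 12.2 to 14.6 CPM in WT (-0.37 to 0.23). Acvr2b, the least counted receptor, had 39, 71 and 56 counts in KO M1, F1 and M2 and 71, 69 and 50 counts in WT M1, F1 and M2, and its interval of -0.58 to 0.36 was the widest.

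Of the 15 marker lists, 3 did not overlap between KO and WT, where 11.0% of single genes did not. Newborn neuron markers summed to 60.1 to 63.1 CPM in KO and 73.3 to 77.7 CPM in WT, Cajal-Retzius cell markers to 82.4 to 90.3 CPM in KO and 108 to 117 CPM in WT, and oligodendrocyte precursor markers to 45.0 to 47.3 CPM in KO and 49.2 to 54.3 CPM in WT. Their part in the value of Acvr1c was not tested. Among the libraries with the higher share of mitochondrial ribosomal RNA, Acvr1c had 56.1 CPM in KO M2 and 46.2 CPM in WT F1. Among those with the lower share it had 54.6 and 60.5 CPM in KO M1 and F1 and 43.6 and 39.2 CPM in WT M1 and M2, so KO was above WT in both sets. With the ribosomal RNA share as a term the adjusted p of Acvr1c was 0.0879 (edgeR quasi-likelihood).

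In 1 fit of the 12 libraries, the KO difference (KO minus WT) was taken from the vector difference (Fst vector minus GFP vector). Fst was higher in the Fst vector than in the GFP vector group and lower in KO than in WT, so the comparisons run opposite ways for Fst. Differences that follow Fst alike in both therefore add up in this contrast, and it does not test whether the responses to Fst differ. No receptor passed: edgeR called 0 of 10, where 0.281% of the 15632 genes tested passed, and DESeq2 called 0. At unadjusted p under 0.05 there were 4 of 10 by DESeq2, where 1561 genes passed, and 4 of 10 by edgeR, where 9.95% of genes passed. By edgeR these were Acvr1c at -2.37 ± 0.75 (adjusted p = 0.312, 0.085 by DESeq2 and up to 0.438 over the alternatives), Acvr1b at -0.34 ± 0.12 (0.335), Acvr1 at -1.05 ± 0.41 (0.417) and Bmpr2 at -0.42 ± 0.19 (0.486), as differences between log2 changes with SE. In both comparisons the mean of Acvr1c was higher in the group with less Fst, with 26.7 CPM in the Fst vector group and 98.4 CPM in the GFP vector group, and with 57.0 CPM in KO and 43.0 CPM in WT. The vector groups of Acvr1c overlapped, and GFP vector F had 172 CPM. The mean of Acvr1 was also higher with less Fst, at 41.6 CPM in the Fst vector group and 80.6 CPM in the GFP vector group. In KO it was 48.3 CPM and in WT 47.4 CPM. For Tgfbr1, Bmpr1b and Acvr2b the log2 changes ran the other way, positive in the vector comparison and negative in KO against WT.

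**Figure D3:**
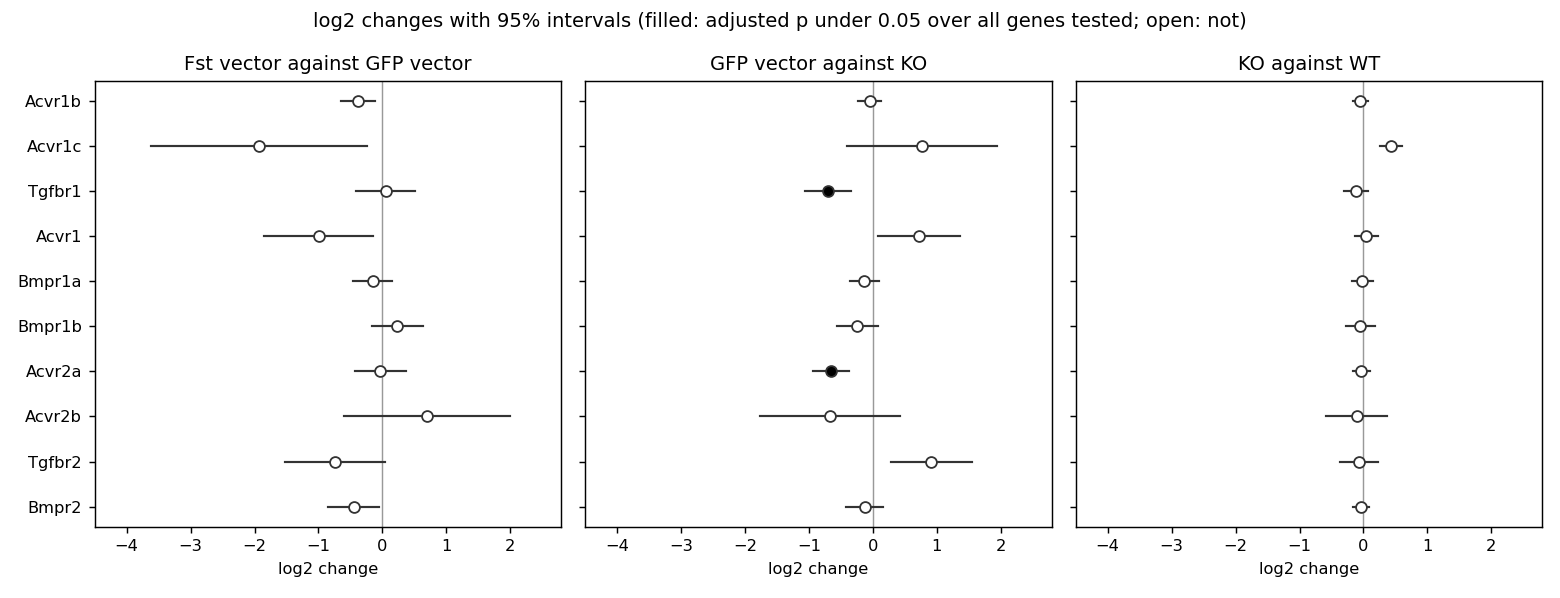
Log2 changes (horizontal axes) of the 10 receptors (vertical axis) in 3 comparisons, with 95% intervals from edgeR as lines and filled points for an adjusted p under 0.05 over all genes tested. Only Tgfbr1 and Acvr2a in GFP vector against KO are filled, and the intervals of KO against WT are narrower than those of the other comparisons. The spread is shared over 12 libraries in GFP vector against KO and comes from the 6 libraries compared in the others. With the spread of its own 6 libraries, GFP vector against KO had an SE of 0.088 for Acvr1b and 0.540 for Acvr1c. In KO against WT these were 0.056 and 0.085.

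GFP vector and KO carry the same labelled genotype and differ in the vector. This comparison was added after the values had been seen, and it spans the separately deposited tables. Its fit shares the spread over all 12 libraries. An effect of the vector and a difference between the tables cannot be told apart. Acvr2a and Tgfbr1 were lower in all 3 GFP vector libraries than in all 3 KO libraries. Acvr2a had 72.5, 51.4 and 59.4 CPM in GFP vector M1, M2 and F and 96.5, 93.3 and 95.7 CPM in KO M1, F1 and M2. Its log2 change was -0.66 ± 0.13 (SE, by edgeR, adjusted p = 0.0250). Tgfbr1 had 34.9, 27.2 and 24.1 CPM in GFP vector M1, M2 and F and 48.2, 42.0 and 47.8 CPM in KO M1, F1 and M2. Its log2 change was -0.70 ± 0.17 (SE, by edgeR, adjusted p = 0.0397). The Fst vector libraries, at 51.1 to 73.8 CPM for Acvr2a and 23.5 to 37.1 CPM for Tgfbr1, covered the range of the GFP vector libraries for both genes.

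These were 2 of 10 receptors called in GFP vector against KO, where 3.58% of genes were called, and both were lower, where 1.46% of genes were called lower. The groups did not overlap for 2 of 10 receptors, against 29.1% of genes, and 4 of 10 had an unadjusted p under 0.05, against 22.8%. Of these 4, 2 were lower, against 10.4% of genes. DESeq2 called the same 2 receptors, where it called 909 of 14747 genes. Its adjusted p was 0.0017 for Acvr2a and 0.0044 for Tgfbr1. Over all alternatives the adjusted p lay between 1.06e-05 and 0.112 for Acvr2a and between 1.06e-04 and 0.140 for Tgfbr1. Both calls ended without KO M1, KO F1, KO M2, GFP vector M2 or GFP vector F, with adjusted p of 0.0587 to 0.112 for Acvr2a and 0.0989 to 0.140 for Tgfbr1, while the log2 changes stayed between -0.80 and -0.54 for Acvr2a and between -0.87 and -0.59 for Tgfbr1 over the alternatives. With the spread of its own 6 libraries Tgfbr1 had an adjusted p of 0.0501 and Acvr2a one of 0.0434. Orc4, which shares exon bases with Acvr2a, had a log2 change of -0.45 ± 0.12 in this comparison (SE, by edgeR, adjusted p = 0.0468).

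Of the other receptors, Tgfbr2 and Acvr1 leaned the other way. Tgfbr2 had 12.6, 23.7 and 35.8 CPM in GFP vector M1, M2 and F and 13.5, 14.6 and 9.85 CPM in KO M1, F1 and M2, which overlapped (log2 change 0.91 ± 0.29, SE, by edgeR, adjusted p = 0.0937). Acvr1 had a log2 change of 0.72 ± 0.29 (adjusted p = 0.172) and Acvr1c one of 0.77 ± 0.51 (adjusted p = 0.405), both by edgeR with SE. Without GFP vector F they were 0.51 for Tgfbr2, 0.24 for Acvr1 and 0.09 for Acvr1c. Without GFP vector M1, Tgfbr2 at 1.21 and Acvr1 at 0.98 passed the adjustment (0.0022 and 0.0174), in a fit that called 1831 of 15980 genes. Of the 15 marker lists, 5 did not overlap between GFP vector and KO, where 29.1% of single genes did not. Oligodendrocytes stood at 1012 to 1180 CPM in the GFP vector group and 838 to 917 CPM in KO. Their precursors stood at 37.1 to 43.7 CPM in the GFP vector group and 45.0 to 47.3 CPM in KO. CA1 pyramidal cells stood at 65.8 to 72.0 CPM in the GFP vector group and 54.8 to 63.7 CPM in KO. Microglia stood at 156 to 187 CPM in the GFP vector group and 147 to 154 CPM in KO. Blood stood at 33.7 to 45.5 CPM in the GFP vector group and 25.9 to 30.2 CPM in KO. The astrocyte list overlapped, at 1343, 2513 and 5890 CPM in GFP vector M1, M2 and F and 1260 to 1346 CPM in KO. Of its markers Gfap and Aldh1l1 did not. Gfap stood at 566, 1555 and 4864 CPM in GFP vector M1, M2 and F and 396 to 464 CPM in KO (log2 change 2.44 ± 0.65, SE, by edgeR, adjusted p = 0.0757). Aldh1l1 stood at 31.7, 33.8 and 57.1 CPM in GFP vector M1, M2 and F and 28.3 to 30.8 CPM in KO (log2 change 0.45 ± 0.17, SE, by edgeR, adjusted p = 0.144). The part of these markers in the receptor values was not tested. Acvr2a and Tgfbr1 were lower in the GFP vector group within both sets of libraries split by the share of mitochondrial ribosomal RNA.

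Over the 12 libraries some receptors had like patterns. Pearson's r of log2 CPM was 0.92 between Tgfbr1 and Acvr2a, 0.90 between Acvr1c and Acvr1 and 0.87 between Acvr1 and Tgfbr2. It was -0.69 between Tgfbr1 and Tgfbr2, the partners of the TGF-beta receptor complex. All these values rest on the same 12 libraries and their groups, and they are given as a description. Among 11642 genes with a mean of at least 5 CPM, the gene nearest to each receptor by r was found. It was Rasal2 for Acvr1b (0.98), Kndc1 for Acvr1c (0.96), Traf3 for Tgfbr1 (0.97) and Tspan5 for Acvr1 (0.99). It was Gm29237 for Bmpr1a (0.97), Gm4924 for Bmpr1b (0.91), Gm48348 for Acvr2a (0.99), Sash1 for Acvr2b (0.88), St6galnac4 for Tgfbr2 (0.95) and Pdpk1 for Bmpr2 (0.97). Rasal2, nearest to Acvr1b, had 93.7, 102 and 104 CPM in Fst vector M1, M2 and F and 199, 182 and 140 CPM in GFP vector M1, M2 and F, with 190 to 227 CPM in KO and 186 to 237 CPM in WT. Like Acvr1b it was lowest in the Fst vector group. Gm48348, nearest to Acvr2a, had 2.45 to 6.48 CPM in the Fst vector group and 2.63 to 6.81 CPM in the GFP vector group, below 12.7 to 16.4 CPM in KO and 11.8 to 14.4 CPM in WT.

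**Figure D4:**
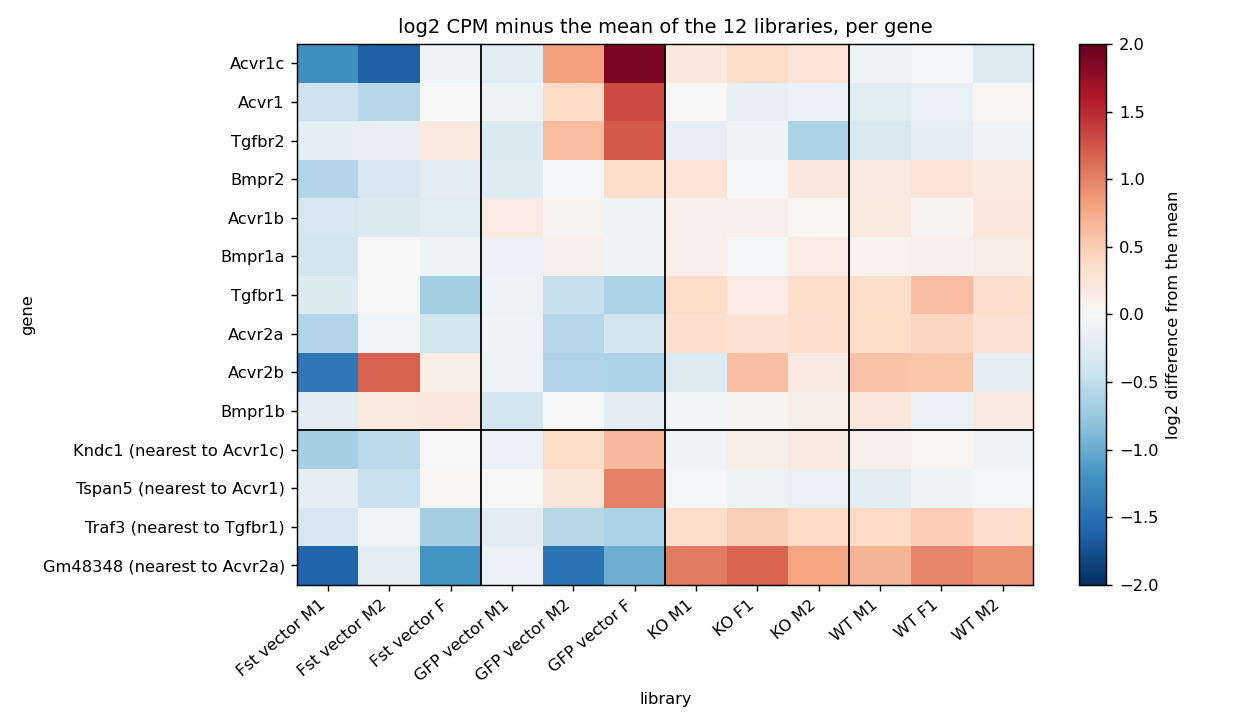
Colours give log2 CPM minus the gene's mean over the 12 libraries (columns) for the 10 receptors and 4 of the nearest genes (rows), red for higher and blue for lower. Acvr1c, Acvr1 and Tgfbr2 are reddest in GFP vector F, and Tgfbr1 and Acvr2a are red in KO and WT and pale or blue in the vector groups.

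The other genes of the pathway were read from lists by role. In the Fst vector against the GFP vector, Fst was the only listed gene called by edgeR, and the genes on the list of SMAD targets had a median log2 change of -0.37, against 0.01 over all genes. Of 14 listed targets 12 were tested, 0 were called by edgeR, 6 had an unadjusted p under 0.05 (5 lower, 1 higher) and DESeq2 called 5. Over all genes 9.51% had an unadjusted p under 0.05 by edgeR and 5.16% were also lower, and DESeq2 called 239 of 15214. Skil, which encodes a repressor of SMAD activity and is itself induced by it, had 35.8, 27.5 and 38.4 CPM in Fst vector M1, M2 and F and 91.4, 96.6 and 208 CPM in GFP vector M1, M2 and F. The groups were far apart, with a log2 change of -1.998 ± 0.35 (SE, by edgeR, adjusted p = 0.158). With the replicate block the adjusted p of Skil was 0.0118, and 2 listed targets passed in that fit, Skil and Klf10. Smad7, an inhibitory SMAD that blocks type I receptors and stands in the lists of targets and of SMADs, had 11.6, 8.0 and 8.97 CPM in Fst vector M1, M2 and F and 17.4, 14.8 and 22.3 CPM in GFP vector M1, M2 and F, also with no overlap (log2 change -0.97 ± 0.22, SE, by edgeR, adjusted p = 0.211). Chosen after their values were seen, Klf10 had a log2 change of -2.23, Pmepa1 one of -2.96 and Ski one of -0.57, all by edgeR. Their adjusted p were 0.240, 0.300 and 0.235, and with the replicate block 0.0066, 0.176 and 0.0804. Klf10 had 5.20, 5.67 and 9.30 CPM in Fst vector M1, M2 and F and 19.1, 19.4 and 53.6 CPM in GFP vector M1, M2 and F. Pmepa1 had 11.2, 8.51 and 8.75 CPM in Fst vector M1, M2 and F and 34.4, 34.96 and 146 CPM in GFP vector M1, M2 and F. GFP vector F stood far above the other GFP vector libraries for both, and every GFP vector library was above every Fst vector library. These 3, Skil and Smad7 were the 5 that DESeq2 called, with adjusted p of 2.59e-08 for Skil to 0.0251 for Smad7. By edgeR Smad7 had an adjusted p of 0.0762 with the replicate block. The 1 target that was higher at unadjusted p under 0.05 was Id4. It had 158, 153 and 130 CPM in Fst vector M1, M2 and F. In GFP vector M1, M2 and F it had 114, 113 and 73.2 CPM, with no overlap. Its log2 change was 0.52 ± 0.18 (SE, by edgeR, adjusted p = 0.421, and 0.0853 with the replicate block).

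Of 34 genes listed as ligands, 15 were tested in the vector comparison and 0 called by edgeR. Of these 15, 5 had an unadjusted p under 0.05, all higher, and the median log2 change was 1.02e-04. DESeq2 called 2, where it called 239 of 15214 over all genes. By edgeR 9.51% of all genes had an unadjusted p under 0.05, with 653 of 15034 higher and 776 lower. One of the 5 listed genes is Bmp1, which encodes a procollagen-cleaving metalloprotease and no ligand of the family. The genes called by DESeq2 were Gdf11, an activin-like ligand, with 38.3, 46.6 and 36.6 CPM in Fst vector M1, M2 and F and 26.4, 23.5 and 19.6 CPM in GFP vector M1, M2 and F, and Inha, the inhibin alpha subunit, with 82.5, 78.2 and 71.8 CPM in the Fst vector libraries and 56.1, 49.3 and 35.5 CPM in the GFP vector libraries. Neither overlapped between the groups, where 16.5% of all genes tested did not. The log2 changes of Gdf11 and Inha were 0.77 ± 0.16 and 0.69 ± 0.17 (SE, by edgeR, adjusted p = 0.173 and 0.244). With the replicate block Gdf11 had an adjusted p of 0.0533 and Inha one of 0.0488. Of 18 extracellular antagonists 16 were tested, with 4 at unadjusted p under 0.05, 1 higher and 3 lower, and their median log2 change was -0.45. Besides Fst, called higher (adjusted p = 8.37e-07, edgeR quasi-likelihood), DESeq2 called Fstl4, a follistatin-like gene, with a log2 change of -0.94 ± 0.23 by edgeR (adjusted p = 0.244, and 0.0328 with the replicate block). Fstl1, a secreted follistatin-like glycoprotein gene, had -0.59 ± 0.18 (adjusted p = 0.346, and 0.156 with the replicate block).

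Of 8 SMADs all were tested, 1 passed at an unadjusted p under 0.05, Smad7, and DESeq2 called 1, at a median log2 change of -0.08. Smad6, the other inhibitory SMAD, had a log2 change of -0.58 ± 0.33 (edgeR, adjusted p = 0.650). Of 14 receptor-associated and trafficking genes all were tested, 3 were lower at unadjusted p under 0.05 and 0 were called by edgeR or DESeq2, at a median log2 change of -0.15. The lowest p values were those of Nedd4l, a ubiquitin ligase that acts on the pathway, at -0.46 ± 0.14 (edgeR, adjusted p = 0.367), and of the scaffold gene Magi2 at -0.48 ± 0.20 (adjusted p = 0.516). Of 15 other receptors and co-receptors 10 were tested, 1 was higher at unadjusted p under 0.05 and 0 were called by edgeR or DESeq2, at a median log2 change of -0.06. That gene was Tgfbr3l, at 0.72 ± 0.27 (edgeR, adjusted p = 0.445), followed by its relative Tgfbr3, the co-receptor betaglycan, at 0.55 ± 0.27 (adjusted p = 0.582).

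In KO against WT, Fst was again the only listed gene called, lower at a log2 change of -3.71 ± 0.42 (SE, by edgeR, adjusted p = 1.13e-05). Among 15 antagonists tested it was the 1 at unadjusted p under 0.05, and DESeq2 called it alone. The next in that list were Fstl1 at 0.21 ± 0.10 and Dand5, an antagonist of nodal and BMPs, at 0.32 ± 0.17. Among 11 SMAD targets tested 3 had an unadjusted p under 0.05, 1 higher and 2 lower, where 5.96% of all genes had one and 3.01% were also lower. Pmepa1, which encodes a feedback inhibitor that binds SMADs, had 38.1, 30.7 and 33.4 CPM in KO M1, F1 and M2 and 27.3, 28.4 and 26.6 CPM in WT M1, F1 and M2, with a log2 change of 0.33 ± 0.10 (SE, by edgeR, adjusted p = 0.411). Id4, a BMP target that encodes an inhibitor of differentiation, had 83.6, 79.7 and 80.6 CPM in KO M1, F1 and M2 and 94.99, 88.3 and 103 CPM in WT M1, F1 and M2, with a log2 change of -0.22 ± 0.07 (SE, by edgeR, adjusted p = 0.522). Neither overlapped between KO and WT, and neither passed.

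Among 13 genes of the ligand list tested in KO against WT, 2 were higher at unadjusted p under 0.05: Tgfb2 at 0.20 ± 0.07 (edgeR, adjusted p = 0.736) and Bmp3 at 1.01 ± 0.41 (adjusted p = 0.761), Bmp3 at 1.84 CPM in KO and 0.915 CPM in WT on average. Among 9 other receptors and co-receptors tested 1 was lower at that threshold, Rgma, a BMP co-receptor, at -0.22 ± 0.11 (adjusted p = 0.837). Acvrl1, a type I receptor of endothelium, followed at -0.27 ± 0.20 (adjusted p = 0.934). Among 14 receptor-associated genes tested 1 was higher at that threshold, Fkbp1a, whose product binds type I receptors and keeps them inactive, at 0.11 ± 0.05 (edgeR, adjusted p = 0.837), and Tgfbrap1 followed at -0.11 ± 0.08. All 8 SMADs were tested and 0 had an unadjusted p under 0.05, with Smad1 at -0.14 ± 0.10 and Smad4, the shared partner of the other SMADs, at -0.12 ± 0.08 nearest to it. DESeq2 called 0 members of these lists other than Fst. Over the genes tested, the median log2 change was 0.08 for ligands, 0.06 for antagonists, 0.04 for receptor-associated genes, -0.0052 for SMAD targets, -0.02 for SMADs and -0.04 for other receptors and co-receptors.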

How the data were processed

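Transcripts of the dentate gyrus were measured in 12 libraries. Groups came from the descriptions and library names from the titles. The authors deposited raw read counts per gene in 2 tables, per the file headers. Per the submitters' processing notes, the genome build was GRCm38. No source used here gives the aligner, the counting tool or strand. Of 52636 gene IDs, 52403 matched a symbol in the reference table of names, and 52489 had coordinates in the GENCODE annotation of GRCm38. Lines naming no gene (12 in the vector table, 6 in the other) held no counts and were left out.

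CPM used the library totals, of which a count of 3 is 0.265 to 0.371 CPM. Replicates differed by more than sampling noise, with a chi-square per degree of freedom of 2.39 to 31.5. Each table was fitted on its 6 libraries with edgeR 4.0.16 in R 4.3.3: TMM, the default filterByExpr, quasi-likelihood F tests with robust dispersion, and Benjamini-Hochberg adjustment over all genes tested at 0.05. GFP vector against KO, and the vector difference less the KO difference, were fitted in the same way on all 12 libraries. The scripts were tested on simulated data. DESeq2 1.42.0, other scalings and filters, terms for sex or ribosomal RNA, and leaving out each library were alternatives. Sampling and counting intervals cover counting error only.

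Same-named libraries of the vector groups deviated together from their group means (r = 0.325 for M1, 0.138 for M2 and 0.390 for F), so the fit with a replicate block is given there. Libraries of different names had r of -0.461 to 0.119, so the M2 pair was only just above them. No label states this pairing, and F is also the female library.

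The receptors and lists were chosen with earlier results of these data known. All receptors are named. In each list every called gene and the 2 with the smallest p are named, and for each receptor the gene with the highest r of log2 CPM (prior count 2).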

Additional observations from a re-analysis of the deposited data

How the results depend on the processing

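In KO against WT 4 genes were called. The count was 46 with no filter on low counts, 30 with sex by title as a term, 23 with the replicate block and 1 with the spread of 12 libraries. It ran from 2 (without WT M2) to 17 (without WT F1) when 1 library was left out, and was 7 without KO M2. Same-named KO and WT libraries did not deviate together more than others did (r = 0.0607, 0.130 and -0.0805, against -0.197 to 0.178 for different names). The names are therefore not taken as pairs. The block gave Acvr1c an adjusted p of 0.0172 and changed no other call of a receptor there.

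In the Fst vector against the GFP vector 12 genes were called. The count was 412 with the spread of 12 libraries, 239 by DESeq2, 230 with no filter, 141 with the replicate block, 132 with sex by title and 4 with the ribosomal RNA term. It ran from 1 (without Fst vector M2) to 29 (without GFP vector M1), and was 2 without Fst vector M1, 3 without Fst vector F and 4 without GFP vector M2. Besides that of Acvr1c, the block changed no call of a receptor. Of the genes at unadjusted p under 0.05, 56.8% were higher when scaled by library totals, against 45.7% with TMM. In KO against WT this was 34.4%, against 49.5%, and for the vector difference less the KO difference 61.7%, against 43.3%.

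In GFP vector against KO, added after the data were seen, 559 genes were called. The count was 1190 with no filter, 909 by DESeq2 and 279 with the spread of its own 6 libraries. It ran from 7 (without KO M1) to 1831 (without GFP vector M1), and was 10 without KO M2, 20 without KO F1, 131 without GFP vector M2 and 141 without GFP vector F.

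Acvr2b, at 0.70 in the vector comparison, turned sign without Fst vector M2, and the other signs that turned belonged to log2 changes of at most 0.11 in size. Acvr2a in the vector comparison was 0.0078 with library totals, and its vector difference less its KO difference 0.0588 with library totals and 0.0159 with no filter. Leaving out 1 library gave these ranges of the log2 change in KO against WT: Acvr1 -0.0108 to 0.119, Bmpr1a -0.0579 to 0.0307, Bmpr1b -0.140 to 0.0178, Acvr2a -0.0721 to 0.0107, Acvr2b -0.346 to 0.0817, Tgfbr2 -0.184 to 0.0907 and Bmpr2 -0.0892 to 0.0445. In the vector comparison it gave Tgfbr1 -0.100 to 0.221, Acvr2a -0.175 to 0.115 and Acvr2b -0.0539 to 1.14, and in GFP vector against KO Acvr1b -0.120 to 0.0065. The other receptors kept their sign under every alternative run. The causes of these shifts were not tested. Acvr2b, with 19 to 113 counts a library, is the receptor most limited by depth.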
